A study of Homo sapiens with 9 samples.

Results

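Messenger RNAs of the microRNA machinery, 10 genes in all, were followed in SH-Sy5y cells that carried growing amounts of a synthetic microRNA. They were taken as a list of names by their role in the pathway, with no cut on a measured value: DROSHA, DGCR8, XPO5, DICER1, AGO1, AGO2, AGO3, TNRC6A, TNRC6B and TNRC6C. All 10 of 10 were found among the 14943 genes of the count table. SH-Sy5y is a human neuroblastoma line of noradrenergic character. Cells were transfected with Lipofectamine for 48 h, and polyadenylated RNA was sequenced from 3 libraries in each of 3 groups. Ctrl. cells received 40 pmol of a negative control oligonucleotide, 10 nM cells received 20 pmol of it together with 20 pmol of miR-1229-3p precursor (the mimic), and 20 nM cells received 40 pmol of mimic and 0 pmol of the control oligonucleotide. All 3 groups thus carried an equal load of transfected small RNA. The comparisons contrast the identity of that RNA and not its presence, since cells without any transfected RNA were not analysed here. Nothing in the labels ties the replicates to separate thaws or passages, so the p-values measure the spread between these libraries, which may be technical.

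MicroRNAs are cut from nuclear transcripts by the Microprocessor, made of the RNase DROSHA and its RNA-binding partner DGCR8, carried to the cytoplasm by XPO5 with RAN-GTP, and trimmed by DICER1. One strand is then held by an argonaute protein, which finds messenger RNAs through the seed of the microRNA and calls in a TNRC6 (GW182) scaffold. The scaffold recruits deadenylases, and decapping and decay of the message follow. A transfected precursor does not need the nuclear steps but shares argonaute and TNRC6 with the microRNAs of the cell.

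The microRNA is shown first because its seed decides which of these genes could be matched by it. The mature miR-1229-3p, taken from RefSeq, lies at chr5:179798278-179798300 on the minus strand (GRCh38.p14). It is printed 5′ to 3′, with the seed, bases 2 to 8 counted from the 5′ end, in capitals.
miR-1229-3p: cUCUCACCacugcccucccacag
Each 3′ untranslated region (UTR) was searched on the transcribed strand for the 6-mer GTGAGA, its extensions by a base on either side to the 7-mers GTGAGAA and GGTGAGA, and the 8-mer GGTGAGAA that holds all of these, counting each place under the longest of these it holds. In the longest annotated 3′ UTR of each gene, 4 of the 10 genes had a 7-mer or 8-mer: AGO1, AGO2, AGO3 and TNRC6A. Of all 13777 genes with a 3′ UTR of at least 50 bases, 22.6% had one. The UTRs of the 10 genes were long, with a median of 4124 bases against 1552 over all genes, and they held 0.134 such sites per kb against 0.140. Per length, the machinery genes thus carried about as many matches as other genes.

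AGO1 held the only 8-mer of the 10 genes, with a 7-mer further on. AGO3 held 5 copies of the 7-mer GTGAGAA in a 3′ UTR of 16755 bases, AGO2 held 1 and TNRC6A held 1. DGCR8, DICER1 and TNRC6B had only 6-mers, and DROSHA, XPO5 and TNRC6C had none of the 4 motifs. A choice of these sites, from AGO1, AGO3, TNRC6A and DGCR8, is shown on the transcribed strand. The match is in capitals and the flanking bases are in lower case. Other sites, among them those of AGO2, DICER1 and TNRC6B, are not printed.
AGO1, 8-mer at chr1:35924374-35924381 (plus strand): aatagattttaGGTGAGAAtaatactgtag
AGO1, 7-mer at chr1:35925889-35925895 (plus strand): cggataccccaGTGAGAAatcgtcagtgg
AGO3, first of 5 7-mers at chr1:36061050-36061056 (plus strand): gaaatcagaaaGTGAGAAttttctccaaa
TNRC6A, 7-mer at chr16:24825621-24825627 (plus strand): cctgaaataatGTGAGAAcaatgggaaac
DGCR8, 6-mer at chr22:20110992-20110997 (plus strand): agactttcacaGTGAGAgtagaaggtag
A match is a description of the annotated sequence, and whether these UTR stretches were present in the transcripts of these cells was not tested.

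The libraries held 17.4 to 28.2 M estimated counts, and the 10 genes took 0.0884% to 0.103% of them. EIF4G2, a translation initiation factor taken as a check of the mimic because it was known to fall in these data, fell from 1140 ± 19.4 counts per M counts (CPM, scaled by TMM; mean ± SD, n = 3) in Ctrl. to 652 ± 31.3 with 10 nM of mimic and 489 ± 46.3 with 20 nM. The 20 nM replicate 3 stood apart from the other libraries, at 47.4 on the first principal component (30.4% of the variance) against -17.1 to 7.72 for the other 8. Of 8 noradrenergic markers 7 were well expressed, between 167 and 2113 CPM, while TH lay at 0.12 to 0.91 CPM. The leukocyte marker PTPRC was not in the table, and the epithelial markers EPCAM and CDH1 summed to 0.914 to 2.37 CPM. The sum of the mesenchymal markers found in the table, 5 of 6, was 522 to 599 CPM in Ctrl., 546 to 603 at 10 nM and 600 to 822 at 20 nM. Most of it was TWIST1, at 386 to 692 CPM over all libraries. FN1 lay at 89.6 to 125 CPM, COL1A1 at 19.9 to 27.8, YAP1 at 6.44 to 12.2 and SNAI2 at 3.40 to 7.03, and PRRX1 was not found. The sum of the noradrenergic markers was 4756 to 4910 CPM in Ctrl., 5110 to 5564 at 10 nM and 4901 to 5957 at 20 nM. The part of these shifts in the results below was not tested. Fewer cells of a kind and less RNA per cell cannot be told apart in such bulk samples.

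The first question was how abundant the parts of the pathway were in these cells. On a scale per length (CPM per kb of the canonical transcript, Ctrl. mean ± SD, n = 3), XPO5 stood highest at 29.7 ± 0.337. DROSHA at 17.1 ± 0.413 and DGCR8 at 16.2 ± 0.382 came next, and their ranges overlapped. TNRC6A followed at 14.5 ± 0.969 and AGO2 at 11.0 ± 0.825. DICER1 at 8.96 ± 0.930 and TNRC6C at 8.58 ± 0.598 did not differ beyond their spread. AGO1 lay at 6.21 ± 0.344, AGO3 at 2.75 ± 0.150 and TNRC6B at 1.44 ± 0.0930. In this order the ranges of the 3 libraries overlapped for the pairs DROSHA with DGCR8 and DICER1 with TNRC6C, and for no other neighbours. The order rests on the annotated length of the canonical transcript, 19.7 kb for AGO3 and 18.3 kb for TNRC6B, which need not be the form made in these cells.

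The main question was whether the messenger RNAs of the machinery moved as mimic replaced the control oligonucleotide. At 10 nM 0 of 10 passed an adjusted p of 0.05 in edgeR's quasi-likelihood test with 1 surrogate variable. In DESeq2 0 passed too. Over all genes, 0.649% passed in edgeR. An unadjusted p under 0.05 was found for 1 of the 10 and for 2084 of all 14943 genes. At 20 nM 1 of 10 passed, TNRC6C, which was higher, against 13.9% of all genes (7.8% higher and 6.08% lower). An unadjusted p under 0.05 was found for 5 of the 10 and for 4187 of all genes. In the trend over 0, 10 and 20 nM, which gives a fold change per 20 nM, 2 of 10 passed, TNRC6C higher and DGCR8 lower, against 17.5% of all genes (9.84% higher and 7.69% lower). From 10 to 20 nM 0 of 10 passed in edgeR and 0 in DESeq2, against 2.79% of all genes in edgeR. An unadjusted p under 0.05 was found there for 2 of the 10 and for 2220 of all genes. Among only 10 genes, the counts past the adjusted threshold lie close to what the shares of all genes would give. The median log2 fold change of the 10 genes was -0.01 at 10 nM, 0.06 at 20 nM, 0.08 from 10 to 20 nM and 0.05 in the trend, while that of all genes was 0.0028 from 10 to 20 nM and nearer to 0 in the others. Both concentrations were compared with the same control libraries.

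**Figure D1:**
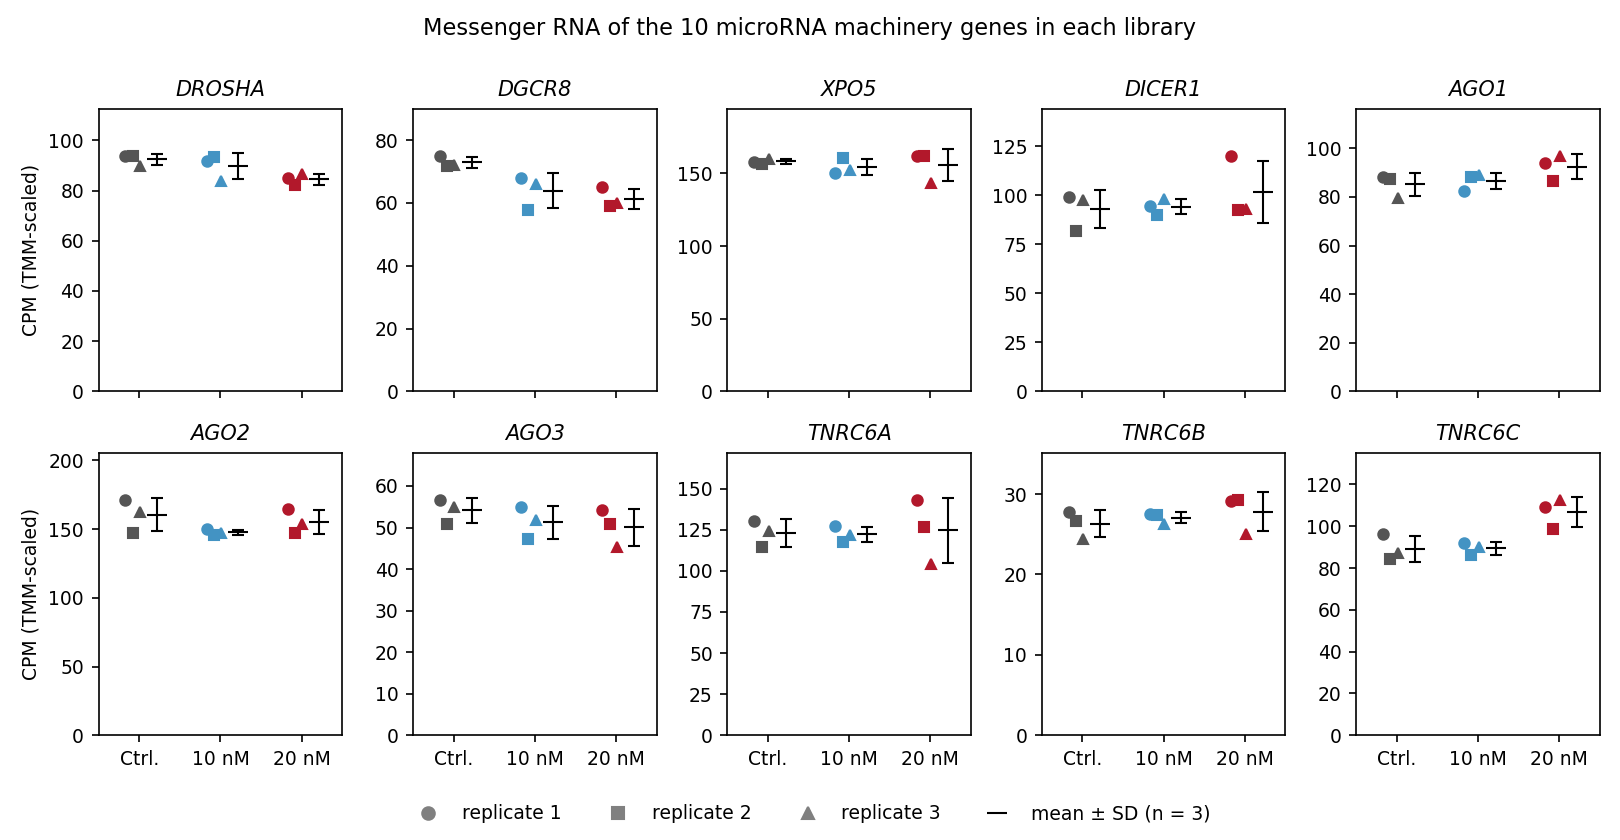
Level of each of the 10 genes in every library, in CPM scaled by TMM, for Ctrl., 10 nM and 20 nM. Symbols mark the replicate number and the black bar with whiskers the mean ± SD of 3 libraries. All 3 libraries of 20 nM lie above all Ctrl. libraries for TNRC6C and below them for DROSHA and DGCR8, and the groups overlap for the other 7 genes at 20 nM.

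DGCR8 (ENSG00000128191, chr22:20080221-20111877, plus strand) binds the stem of the primary transcript and positions DROSHA on it. It stood at 75.0, 71.8 and 72.2 CPM in Ctrl. replicates 1 to 3, at 68.0, 57.7 and 66.1 at 10 nM, and at 64.9, 59.1 and 60.0 at 20 nM. Every mimic library lay below every Ctrl. library, and the ranges of 10 nM and 20 nM overlapped. The group means were 73.0 ± 1.72, 63.9 ± 5.50 and 61.3 ± 3.15 CPM (SD, n = 3). DGCR8 fell by 0.20 on the log2 scale over the dose trend (SE 0.048, edgeR adjusted p = 0.0129), a change of -12.7%. Against Ctrl. it differed by -0.18 with the lower concentration (edgeR adjusted p = 0.203) and by -0.22 with the higher one (95% interval -0.37 to -0.07, edgeR adjusted p = 0.0539). In a fit blocked on replicate number, without surrogate variable, the value at 20 nM was -0.25 (edgeR adjusted p = 0.0282). From 10 to 20 nM it changed by -0.04 (95% interval -0.18 to 0.11). Without 10 nM replicate 2, the lowest library, that step was -0.11 and the difference of 10 nM from Ctrl. -0.12, so these libraries do not place the change at either step. The dose trend lost its call without Ctrl. replicate 1 (edgeR adjusted p = 0.0711), without Ctrl. replicate 3 (0.0595), without 20 nM replicate 2 (0.106) and with no surrogate variable (0.0537). The call was also lost with the mimic coded as present or absent, at -0.20 (edgeR adjusted p = 0.102).

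DROSHA (ENSG00000113360), the RNase of the Microprocessor, stood at 93.8, 93.6 and 89.8 CPM in Ctrl., at 91.7, 93.5 and 84.0 at 10 nM and at 84.9, 82.2 and 86.5 at 20 nM. The 20 nM libraries were all below the Ctrl. libraries, while 10 nM overlapped with both. Its log2 fold change at 20 nM was -0.13 (95% interval -0.26 to -0.01), which missed the threshold (edgeR adjusted p = 0.139), as did the dose trend at -0.14 (edgeR adjusted p = 0.0955). Without 20 nM replicate 3 the value at 20 nM was -0.15 (edgeR adjusted p = 0.00633, and 0.0347 with the number of surrogate variables held). CPM of DROSHA and DGCR8 together came to 165 ± 3.36 in Ctrl., 154 ± 5.27 at 10 nM and 146 ± 4.33 at 20 nM (SD, n = 3). All mimic libraries, at 141 to 160 CPM, lay below the Ctrl. libraries at 162 to 169, as a description of a sum formed after the single genes were known.

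XPO5 (ENSG00000124571), the export receptor of precursor microRNAs, did not pass the threshold in any comparison. It stood at 158, 157 and 160 CPM in Ctrl., at 150, 161 and 152 at 10 nM and at 162, 162 and 143 at 20 nM, where replicate 3 was the lowest of all 9. The groups overlapped, and the log2 fold change was -0.02 at 10 nM (95% interval -0.11 to 0.07) and 0.04 at 20 nM (-0.07 to 0.14).

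DICER1 (ENSG00000100697), which cuts the loop from the precursor, stood at 99.3, 81.9 and 97.8 CPM in Ctrl., at 94.7, 90.0 and 97.9 at 10 nM and at 120, 92.2 and 93.1 at 20 nM. The mean of 102 ± 15.8 at 20 nM was raised by replicate 1, and the other 20 nM libraries lay within the range of Ctrl. The log2 fold change at 20 nM was 0.21 with a wide interval, -0.005 to 0.42 (edgeR adjusted p = 0.188). Without 20 nM replicate 3 it was 0.20 with an edgeR adjusted p of 0.00697 in a fit with 2 surrogate variables, and 0.18 (0.219) with their number held at 1. With no surrogate variable it was 0.13, and without 20 nM replicate 1 it was -0.03.

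**Figure D2:**
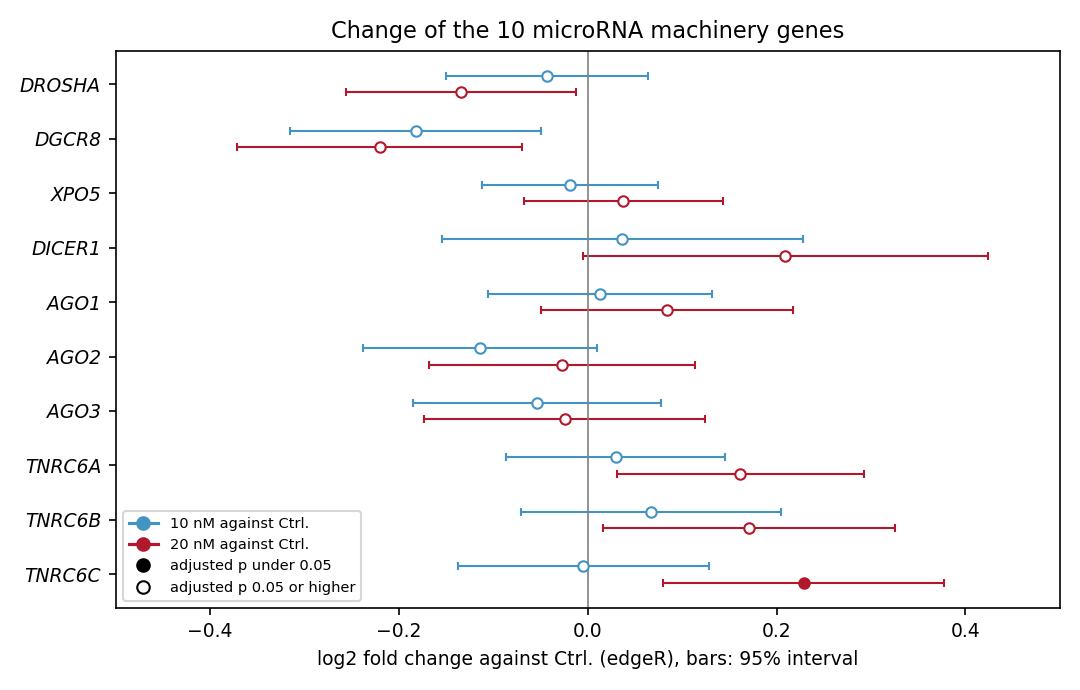
Log2 fold change of the 10 genes against Ctrl. at 10 nM (blue) and 20 nM (red) from edgeR, with 95% intervals as bars. Filled points have an adjusted p under 0.05. TNRC6C at 20 nM, at 0.23, is the one filled point, and DGCR8 lies below 0 at both concentrations, at -0.18 and -0.22.

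The argonautes hold the microRNA strand, and AGO2 is the one that can cut a fully matched target. AGO2 (ENSG00000123908) stood at 171, 147 and 162 CPM in Ctrl., at 150, 146 and 147 at 10 nM and at 165, 147 and 153 at 20 nM. The log2 fold change of AGO2 was -0.11 at 10 nM (95% interval -0.24 to 0.01) and -0.03 at 20 nM (-0.17 to 0.11). The groups overlapped, and the control libraries spread more widely than those of 10 nM. AGO1 (ENSG00000092847) stood at 88.2, 87.5 and 79.7 CPM in Ctrl., at 82.6, 88.1 and 88.9 at 10 nM and at 93.8, 86.7 and 96.9 at 20 nM. For AGO1 the log2 fold change was 0.01 at 10 nM and 0.08 at 20 nM (95% interval -0.05 to 0.22). AGO3 (ENSG00000126070) stood at 56.7, 50.9 and 54.9 CPM in Ctrl., at 55.1, 47.1 and 51.8 at 10 nM and at 54.2, 50.8 and 45.3 at 20 nM, with log2 fold changes of -0.05 and -0.02 (at 20 nM, -0.17 to 0.12). The 4 genes with a 7-mer or 8-mer shown above therefore included no called decrease. AGO1, with its 8-mer, and AGO3, with 5 7-mers, had intervals at 20 nM whose lower ends were -0.05 and -0.17.

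AGO4 (ENSG00000134698), the remaining argonaute, was not among the 10 genes and was described whatever its result. It is the least abundant of the 4 by CPM, but per length it stood above AGO3 in Ctrl., at 4.50 against 2.75 CPM per kb. AGO4 lies beside AGO1 and AGO3 on chromosome 1, with 11917 bases between AGO4 and AGO1 and 185 between AGO1 and AGO3. It stood at 34.7, 32.8 and 30.6 CPM in Ctrl., at 32.5, 28.1 and 27.7 at 10 nM and at 27.4, 22.2 and 26.9 at 20 nM. All 20 nM libraries were below all libraries of both other groups. AGO4 fell by 0.37 on the log2 scale at 20 nM (SE 0.106, edgeR adjusted p = 0.0376), a change of -22.4%. It had none of the 4 seed motifs in its 3′ UTR. The call was lost without Ctrl. replicate 1 (edgeR adjusted p = 0.0924), Ctrl. replicate 2 (0.0643), 20 nM replicate 2 (0.247) or with no surrogate variable (0.0584). The difference between AGO4 and its paralogues was not itself tested. The 4 argonautes summed to 332 ± 16.7, 315 ± 5.29 and 323 ± 16.4 CPM in Ctrl., 10 nM and 20 nM (SD, n = 3), and AGO2 made up 48.2% ± 1.71, 46.9% ± 0.282 and 48.0% ± 0.434 of that sum.

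The TNRC6 proteins are the scaffolds that argonautes bind to silence a message. TNRC6C (ENSG00000078687, chr17:77958703-78108822, plus strand) stood at 96.1, 84.2 and 87.1 CPM in Ctrl., at 92.1, 86.0 and 90.1 at 10 nM and at 109, 98.5 and 113 at 20 nM. All 20 nM libraries were above all libraries of the other groups, and Ctrl. and 10 nM overlapped. The group means were 89.2 ± 6.21, 89.4 ± 3.12 and 106.8 ± 7.36 CPM (SD, n = 3). TNRC6C rose by 0.23 on the log2 scale at 20 nM against Ctrl. (SE 0.069, 95% interval 0.08 to 0.38, edgeR adjusted p = 0.0439), a change of 17.2%. At 10 nM its log2 fold change was -0.005 (95% interval -0.14 to 0.13), and from 10 to 20 nM it was 0.23 (edgeR adjusted p = 0.084). In the reported fit of the dose trend, with 2 surrogate variables, TNRC6C rose by 0.27 (SE 0.055, edgeR adjusted p = 0.00369), the smallest adjusted p among the 10 genes. With 1 surrogate variable it rose by 0.23 (edgeR adjusted p = 0.0391), and in the blocked fit by 0.26 (0.0291). In these 2 fits the adjusted p of DGCR8 was smaller, at 0.0231 and 0.0219. Coded as mimic present or absent, which puts 10 nM and 20 nM together, the value of TNRC6C was 0.08 (edgeR adjusted p = 0.575).

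The call of TNRC6C at 20 nM depended on single libraries. It was lost without Ctrl. replicate 2 (edgeR adjusted p = 0.107), Ctrl. replicate 3 (0.132), 10 nM replicate 2 (0.0535), 10 nM replicate 3 (0.06) or 20 nM replicate 1 (0.239), and with no surrogate variable (0.0596). It was kept without 20 nM replicate 3, at 0.23 (edgeR adjusted p = 0.000314), and in the blocked fit (0.0217). The dose trend was lost without Ctrl. replicate 2 (edgeR adjusted p = 0.0798), Ctrl. replicate 3 (0.11), 20 nM replicate 1 (0.0978) or 20 nM replicate 2 (0.0731), and with no surrogate variable (0.0633). The log2 fold change stayed above 0 each time, between 0.16 and 0.30 at 20 nM.

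**Figure D3:**
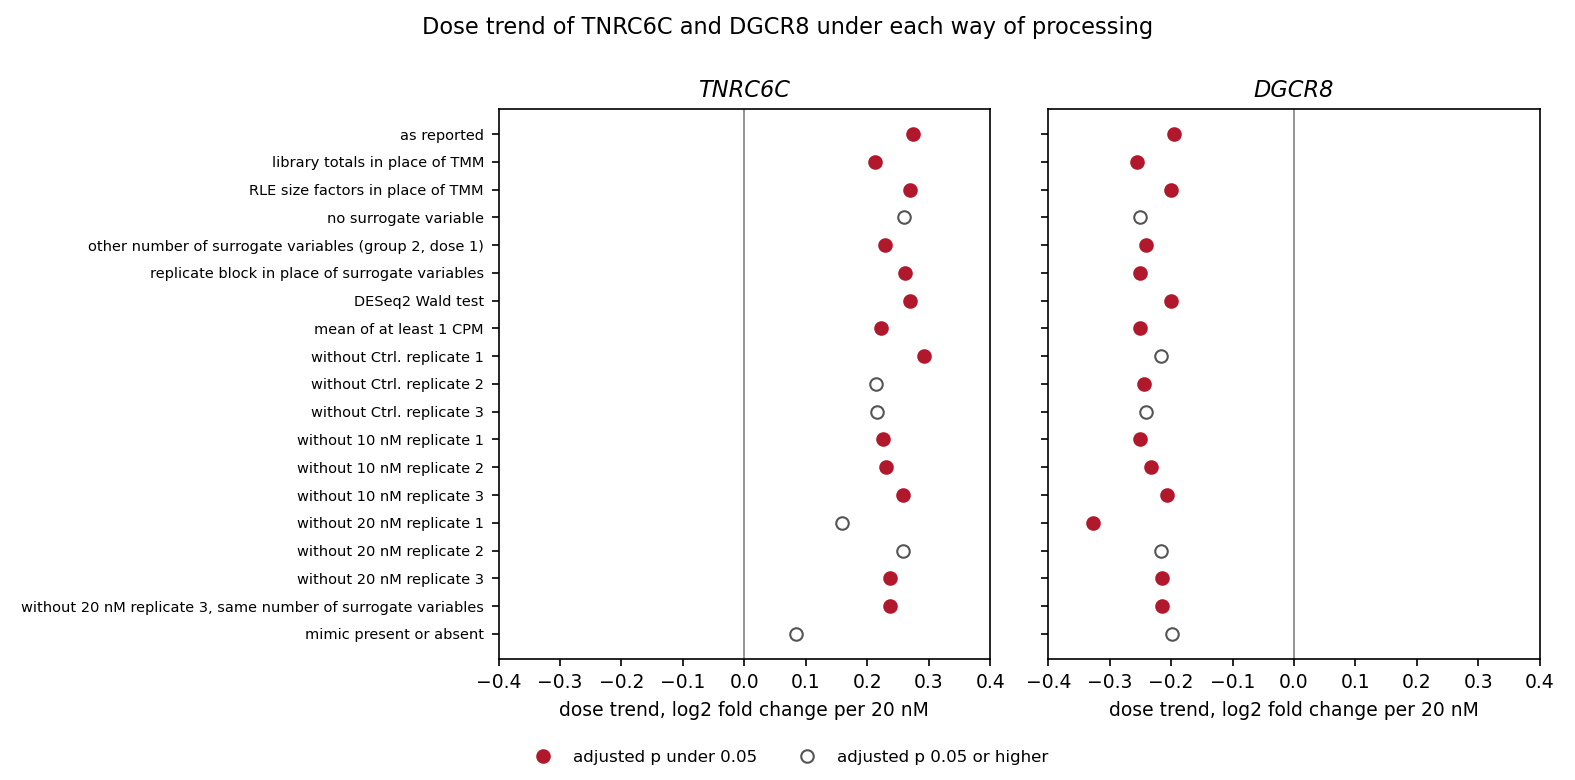
Dose trend of TNRC6C and DGCR8, as log2 fold change per 20 nM, in the reported fit (top) and under each alternative, including the fits without one library. Filled points have an adjusted p under 0.05. TNRC6C stays above 0 (0.08 to 0.29) and DGCR8 below 0 (-0.33 to -0.20), while 12 of 18 and 13 of 18 alternatives keep the call.

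TNRC6A (ENSG00000288130 in the table, a number that the GENCODE annotation used here does not hold, so its position was taken by symbol) stood at 131, 114 and 124 CPM in Ctrl., at 127, 118 and 122 at 10 nM and at 143, 126 and 104 at 20 nM. In 20 nM replicate 3 TNRC6A was at its lowest of the 9 libraries and TNRC6C at its highest. The ratio of TNRC6C to TNRC6A was 0.70 to 0.74 in Ctrl., 0.73 to 0.74 at 10 nM, and 0.76, 0.78 and 1.08 in 20 nM replicates 1 to 3. The log2 fold change of TNRC6A at 20 nM was 0.16 (95% interval 0.03 to 0.29, edgeR adjusted p = 0.0971), and without 20 nM replicate 3 it was 0.14 (edgeR adjusted p = 0.00648), or 0.13 with the number of surrogate variables held (0.2). TNRC6B (ENSG00000100354), the least abundant scaffold by CPM and per length, stood at 27.8, 26.7 and 24.5 CPM in Ctrl., at 27.5, 27.4 and 26.3 at 10 nM and at 29.1, 29.3 and 25.0 at 20 nM. At 20 nM its log2 fold change was 0.17 (95% interval 0.02 to 0.33, edgeR adjusted p = 0.136), and the groups overlapped. Both values come from the fit with a surrogate variable. With none they were 0.02 for TNRC6A and 0.08 for TNRC6B, and in the blocked fit 0.01 and 0.08.

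Leaving out 20 nM replicate 3, the library that stood apart, raised the number of machinery genes called at 20 nM from 1 to 5: TNRC6A, TNRC6C and DICER1 higher, DROSHA and DGCR8 lower. The number over all 14943 genes rose with it, from 2074 to 4370. With the number of surrogate variables held at 1, as in the full fit, 3 machinery genes were called (TNRC6C, DROSHA and DGCR8) and 2656 of all genes. Without that library DGCR8 alone was called at 10 nM, at -0.17 (edgeR adjusted p = 0.0174), where all calls rose from 97 to 1318, but not with the number of surrogate variables held (0.157). Counted by CPM without any model, 1 of the 10 genes had no overlap between 10 nM and Ctrl. (DGCR8), against 20% of all genes. Between 20 nM and Ctrl. it was 3 of 10 (TNRC6C, DROSHA and DGCR8) against 28.9%. The first share lay below that of all genes and the second was close to it.

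The genes whose levels followed TNRC6C most closely over the 9 libraries, by Pearson correlation of log2 CPM, were FBXO34 (r = 0.974), F8A3 (r = 0.973) and KCNAB3 (r = 0.960). The points share groups and library composition, so these are descriptions without a test. F8A3 has near-identical copies on the X chromosome, and its counts are uncertain.

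The wider pathway was described by 70 further genes in 7 lists, of which 69 were in the table. At 10 nM 1 of 69 was called, at 20 nM 14 (7 higher and 7 lower, 20.3% of the 69), from 10 to 20 nM 3 (CNOT11 and DCP2 higher, RAN lower) and in the dose trend 15 (9 higher and 6 lower). The shares for all genes are those given above, 13.9% at 20 nM. The median log2 fold change at 20 nM was 0.02. In the fit blocked on replicate number, 9 of 69 were called at 20 nM and 0 at 10 nM. Without 20 nM replicate 3 the number at 20 nM was 26, or 16 with the number of surrogate variables held. It fell to 6 without 20 nM replicate 1 and to 5 without 20 nM replicate 2. The calls over all genes moved the same way, from 2074 to 4370 or 2656 without replicate 3, and to 1321 and 1074 without replicates 1 and 2.

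RAN, the GTPase that XPO5 needs to hold its cargo, was the one gene of the wider pathway called at both concentrations. It stood at 399, 389 and 392 CPM in Ctrl., at 330, 355 and 352 at 10 nM and at 290, 313 and 358 at 20 nM. All mimic libraries were below all Ctrl. libraries, and 20 nM replicate 3 was the highest of them. RAN fell by 0.22 on the log2 scale at 10 nM (SE 0.041, edgeR adjusted p = 0.0329) and by 0.41 at 20 nM (SE 0.047, edgeR adjusted p = 0.000162), a change of -24.6%. It was called at 20 nM under all 17 alternatives, while at 10 nM it was called under 7 of 17 and had an edgeR adjusted p of 0.461 in the blocked fit. Its longest 3′ UTR held a 6-mer match and nothing longer. In the same list DBR1, which debranches the intron lariats that mirtrons come from, had a log2 fold change of -0.01 at 20 nM (95% interval -0.17 to 0.14).

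**Figure D4:**
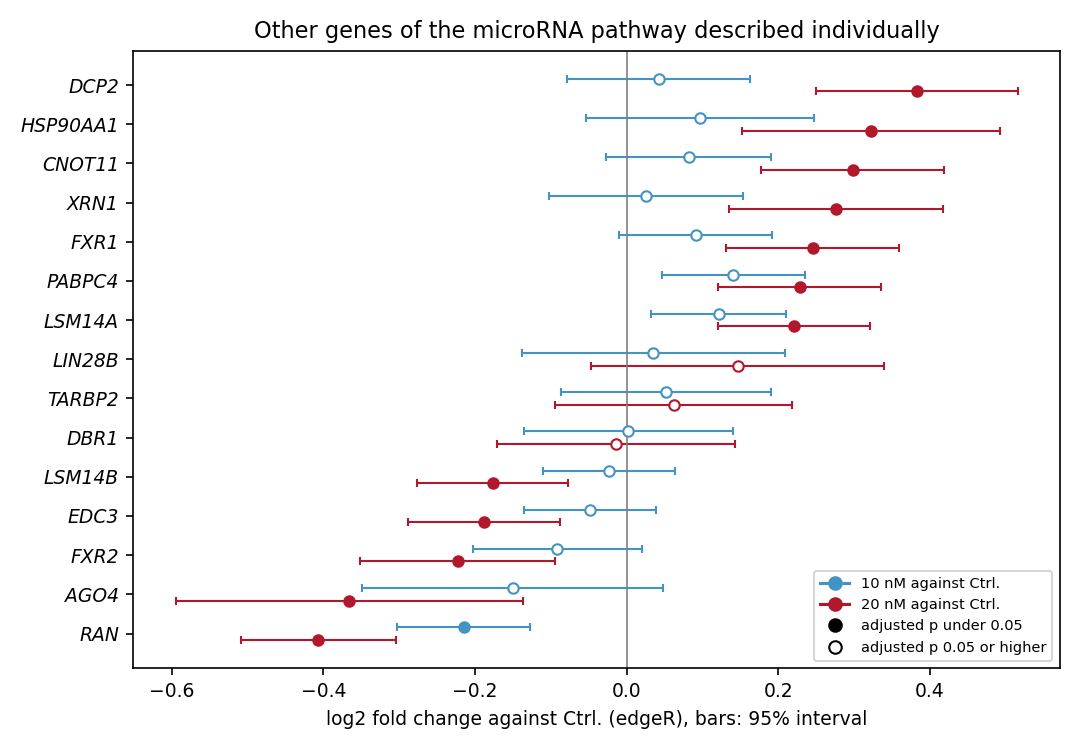
Log2 fold change against Ctrl. at 10 nM (blue) and 20 nM (red) of the other pathway genes described individually, with 95% intervals from edgeR as bars. Filled points have an adjusted p under 0.05. RAN lies lowest at 20 nM, at -0.41, and DCP2 highest, at 0.38, and RAN has the one filled point at 10 nM.

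Among cofactors of the Microprocessor 0 of 10 were called at 10 nM (0 in DESeq2) and 1 at 20 nM, SAFB2. At 10 nM 2 of the 10 had an unadjusted p under 0.05, against 2084 of all 14943 genes. The fit called SAFB2 lower, although its CPM were 104, 94.7 and 101 in Ctrl. and 88.6, 88.2 and 132 at 20 nM, with replicate 3 above every Ctrl. library. Of the 3 Dicer partners 0 were called at 20 nM by edgeR or DESeq2, and 0 had an unadjusted p under 0.05. TARBP2, which helps DICER1 to pass its product to an argonaute, had a log2 fold change of 0.06 at 20 nM (95% interval -0.09 to 0.22). Of 10 genes in the list of AGO4 and loading chaperones 2 were called at 20 nM, AGO4 lower and HSP90AA1 higher. HSP90AA1, a chaperone that keeps argonaute open for loading, stood at 1285, 1508 and 1399 CPM in Ctrl. and at 1699, 1836 and 1688 at 20 nM, all above Ctrl. Its log2 fold change was 0.32 (SE 0.079, edgeR adjusted p = 0.0169), and the call was lost without Ctrl. replicate 1 (0.0504) or 20 nM replicate 2 (0.135).

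Among genes of microRNA tailing and turnover 0 of 9 were called at 20 nM by edgeR or DESeq2. An unadjusted p under 0.05 was found for 2 of the 9, against 4187 of all 14943 genes. LIN28B, which binds the let-7 precursor, stood at 18.4 to 19.7 CPM in Ctrl. and at 20.6 to 21.6 at 20 nM, without overlap. Its log2 fold change of 0.15 did not pass the threshold (95% interval -0.05 to 0.34, edgeR adjusted p = 0.319).

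Downstream of the scaffolds, 3 of 14 deadenylation genes were called at 20 nM (2 higher and 1 lower). Of 20 genes of translational repression, decapping and decay 7 were called (4 higher and 3 lower), against 13.9% of all genes. With no surrogate variable RAN, CNOT11 and HSP90AA1 were the only genes of the wider pathway called at 20 nM. CNOT11, a subunit of the CCR4-NOT deadenylase, stood at 52.0 to 55.0 CPM in Ctrl., at 54.9 to 58.7 at 10 nM and at 60.7 to 66.5 at 20 nM. It rose by 0.30 on the log2 scale at 20 nM (SE 0.056, edgeR adjusted p = 0.00382) and was called under all 17 alternatives. PABPC4, a poly(A)-binding protein, had a log2 fold change of 0.23 (edgeR adjusted p = 0.00944). The deadenylation gene that was lower was PAN2.

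DCP2, the decapping enzyme, stood at 69.9, 69.1 and 71.4 CPM in Ctrl. and at 96.0, 83.6 and 64.6 at 20 nM. XRN1, the nuclease that degrades the decapped message, stood at 35.5, 34.3 and 37.1 CPM in Ctrl. and at 44.1, 40.8 and 30.5 at 20 nM. In both, replicates 1 and 2 of 20 nM were above Ctrl. and replicate 3 was below. The fitted log2 fold changes, which come from a model with a surrogate variable and not from the mean CPM, were 0.38 for DCP2 (edgeR adjusted p = 0.00148) and 0.28 for XRN1 (edgeR adjusted p = 0.0143). With no surrogate variable they were 0.21 (edgeR adjusted p = 0.27) and 0.11 (0.593), and in the blocked fit 0.20 (0.238) and 0.10 (0.578).

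LSM14A and FXR1, RNA-binding proteins of cytoplasmic granules, had log2 fold changes of 0.22 and 0.25 at 20 nM (edgeR adjusted p = 0.00748 and 0.00863). FXR1 was at 0.16 with no surrogate variable (0.205). EDC3, an enhancer of decapping, and LSM14B were lower, at -0.19 and -0.18 (edgeR adjusted p = 0.0173 and 0.0228). LSM14B stood at 98.4, 99.3 and 97.6 CPM in Ctrl. and at 86.1, 91.3 and 109.7 at 20 nM, with replicate 3 above Ctrl., and its value was -0.04 with no surrogate variable and -0.05 in the blocked fit. FXR2 was called lower at -0.22 (edgeR adjusted p = 0.0254), although its CPM were 121, 123 and 127 in Ctrl. and 108, 109 and 171 at 20 nM, with replicate 3 the highest of all libraries. With no surrogate variable its value was 0.07 and in the blocked fit 0.04, so its direction changed with the model. The block also ended the calls of DCP2, XRN1, LSM14A, FXR1, EDC3 and LSM14B. Without 20 nM replicate 1 the calls of DCP2, XRN1, FXR1, PABPC4, EDC3, LSM14B and FXR2 were lost, and without 20 nM replicate 2 those of LSM14A, XRN1, FXR1, LSM14B and FXR2. The call of LSM14B was also lost without Ctrl. replicate 2.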

How the data were processed

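Per the study's methods, the authors quantified the reads by salmon against an Ensembl annotation of GRCh38.p13, and they deposited estimated counts summed by gene symbol, 88.8% of them not whole. Use of strand is not given in the sources used here, so overlapping and antisense genes can exchange reads. The authors' tables of comparisons (log2 fold change, p-value, adjusted p-value) and their corrected log table were not used.

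Counts were rounded and tested in edgeR 4.0.16 (R 4.3.3) by the quasi-likelihood test over all 9 libraries of 17.4 to 28.2 M counts, with TMM scaling and surrogate variables from sva 3.50.0 (num.sv with seed 1, held between 1 and 3, which gave 1 in the fit by group and 2 in the dose trend). P-values were adjusted by Benjamini-Hochberg over 14943 genes, with a threshold of 0.05 and 95% intervals. CPM were scaled by TMM and not corrected for surrogate variables. Alternatives were other scalings, filters, surrogate variables, a replicate block, DESeq2 1.42.0 and leaving out each library, with the number of surrogate variables set anew unless held. The fits were tested on simulated counts. These were drawn independently, without a replicate effect or an outlying library, so they do not cover the handling of such variation.

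The sample titles number the libraries alike in each group, and the labels do not say what the number marks. Deviations from group means correlated at 0.107 to 0.185 in all 6 same-numbered pairs of Ctrl. with a mimic group. The 3 pairs of 10 nM with 20 nM were at 0.174, 0.0288 and 0.176. Of all 9 same-numbered pairs, 8 were over 0.1. The median over differently numbered pairs was -0.067. These correlations are weak, and the reported fits did not include the number, which entered only as the replicate block among the alternatives.

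Genes described individually were the 10 genes, AGO4, DBR1, TARBP2, LIN28B and EIF4G2, the 12 other pathway genes with the smallest adjusted p among those called at 20 nM, and the 3 genes that correlated best with the machinery gene of smallest adjusted p in the dose trend. SAFB2 and PAN2 are named outside that rule, after their values were seen. The members and lists were chosen with earlier results of these data known. Positions and 3′ UTRs of protein-coding transcripts came from GENCODE 44 (GRCh38.p14): 14105 genes matched by identifier, 754 by symbol and 84 did not match. The mature microRNA came from RefSeq. Python 3.11.15 was used for the search.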

Additional observations from a re-analysis of the deposited data

How the results depend on the processing

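Which machinery genes passed the threshold depended on the treatment of variation between libraries. Against 1 called at 20 nM, 2 were called with library totals, with RLE size factors, with genes under 1 CPM removed and with the replicate block, 3 with 2 surrogate variables, 3 without 20 nM replicate 3 at the same number of surrogate variables (an alternative chosen after seeing the data), and 0 with no surrogate variable. Over all genes 2033, 2070, 2144, 2039, 1954, 2656 and 954 were called in these fits, in the same order, against 2074. In the dose trend the number fell from 2 to 0 with no surrogate variable and with the mimic coded as present or absent, while all calls fell from 2620 to 1236 and 164. Leaving out one library gave 0 to 1 at 10 nM, 0 to 5 at 20 nM, 0 to 2 from 10 to 20 nM and 0 to 3 in the trend. The number was 0 at 20 nM without Ctrl. replicate 2, Ctrl. replicate 3 or 10 nM replicate 3, and 0 in the trend without Ctrl. replicate 3 or 20 nM replicate 2. The count of 4 genes with a 7-mer or 8-mer was the same in canonical 3′ UTRs.

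Other pathway genes called were 0 at 10 nM with no surrogate variable and with the replicate block, against 1. From 10 to 20 nM 3 became 0 with both of these settings and 2 with totals, RLE and DESeq2. At 20 nM 14 became 3 with no surrogate variable and 9 with the block, and in the trend 15 became 6 with none and 0 with the presence coding. Without one library the ranges were 0 to 4 at 10 nM, 0 to 13 from 10 to 20 nM, 5 to 26 at 20 nM and 5 to 19 in the trend. Without 20 nM replicate 3 at the same number of surrogate variables, 0 was called at 10 nM.

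Several values changed sign. Of the genes named here, FXR2 was called in the reported fit, and the others were not, DICER1 at 20 nM and in the trend with values of 0.21 and 0.20 among them. With no surrogate variable and with the replicate block the values that turned were, in that order, -0.011 and -0.010 for TNRC6A and 0.0039 and 0.0055 for TNRC6C at 10 nM, -0.024 and -0.026 for XPO5 at 20 nM and also in the trend, 0.16 and 0.15 for DBR1 and 0.066 and 0.041 for FXR2 at 20 nM, and -0.036 and -0.035 for AGO3 from 10 to 20 nM. With 2 surrogate variables TNRC6C at 10 nM was 0.0079 and AGO3 at 20 nM 0.024. Without 20 nM replicate 3 at the same number of surrogate variables, TNRC6A was -0.011 and TNRC6C 0.0058 at 10 nM, and DBR1 6e-04 at 20 nM. XPO5 in the trend was -0.001 with totals and -6e-04 with the presence coding. The cause was not tested. Without one library, log2 fold changes at 10 nM ran from -0.039 to 0.047 for AGO1, -0.10 to 1e-04 for AGO3, -0.023 to 0.060 for TNRC6A, -0.042 to 0.056 for TNRC6C, -0.045 to 0.083 for DICER1, -0.073 to 0.002 for DROSHA and -0.051 to 0.0099 for XPO5. At 20 nM they ran from -0.12 to 0.035 for AGO2, -0.10 to 0.0012 for AGO3, -0.034 to 0.34 for DICER1 and -0.053 to 0.081 for DBR1. From 10 to 20 nM they ran from -0.033 to 0.056 for AGO3, -0.045 to 0.28 for DICER1 and -0.11 to 0.0057 for DGCR8. In the trend they ran from -0.14 to 0.0098 for AGO2, -0.058 to 0.15 for TNRC6A, -0.030 to 0.26 for DICER1 and -0.035 to 0.031 for XPO5. The replicate block changed no call of the machinery genes other than that of DGCR8 at 20 nM.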
